A study of Mus musculus with 30 samples.

Results

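Unstressed male Sst mice were represented by 7 RNA-seq libraries of the 24 in the deposited table, and their titles are of 2 kinds. SS04031R, SST040241L and SST04241LL carry a long number that reads like a date and are called dated. The 4 libraries SST0-M, SST1-M, SST3-M plus SST4-M carry a single digit and are called numbered. The members were chosen by these titles. The labels give all 7 the same condition, so this comparison asks which RNA classes and which cell type markers differ between libraries that should be alike.

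All 7 libraries were made from tdTomato-positive cells sorted from the medial prefrontal cortex (mPFC) of non-stressed C57BL/6 males, heterozygous for an Sst-Cre driver and the Cre-dependent Ai9 (tdTomato) reporter. The mice were 6 to 12 weeks old. In such a reporter a cell stays labeled once Cre has acted, whatever its present Sst level. The labels name polyA RNA as the molecule, and their protocol names a kit that removes ribosomal RNA before cDNA synthesis. The labels do not say what the kind of title stands for, so it cannot be told apart from any step that changed along with it. Nothing in the labels says whether libraries of 1 kind came from separate mice, so p-values here measure the spread between samples, part of which may be technical.

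Small nucleolar RNAs (snoRNAs) guide chemical modification of ribosomal RNA. The C/D box class guides methylation, the H/ACA box class guides pseudouridylation, and most mouse snoRNAs are cut from introns of host genes. Small Cajal body RNAs (scaRNAs) do the same for spliceosomal RNA, while Rpph1 and Rmrp are the RNA parts of RNase P and RNase MRP. None of these RNAs ends in a long poly(A) tail, and neither do the mRNAs of replication-dependent histones, which end in a stem-loop.

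Values are FPKM, which counts fragments per transcript length and per library size. Differences are dated minus numbered on the log2(FPKM + 1) scale unless said otherwise. The libraries SST0-M and SST1-M differed with an SD of the log2 ratio of only 0.0212, against 0.444 for the next closest numbered libraries. They are called the near-identical pair and entered the fit as 1 averaged sample, so that each side had 3. Libraries also stood apart within each kind of title. The SD of the log2 ratio was 0.635 to 0.656 between SS04031R and the other dated libraries and 0.267 between those other two. It was 1.00 to 1.01 between the near-identical pair and SST3-M or SST4-M. The numbered libraries were deeper, by 1.79 to 2.65 times the depth of SST040241L, against 0.815 for SS04031R and 1.00 for SST04241LL. These ratios come from the lowest values and are approximate, since 21.5% to 38.1% of low genes lay at the step of 1 read. Between 12124 and 14003 genes per library exceeded 0.4 FPKM.

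Markers of the labeled cell type were low. Sst was 0, 2.89 and 1.44 FPKM in the dated libraries and 0.822, 0.862, 6.02 and 0.238 FPKM in the numbered ones, and Gad1 and Gad2, which make GABA, stayed below 1 FPKM in all 7. The microglial genes P2ry12 and Cx3cr1, a purine and a chemokine receptor, lay between 284 and 1253 FPKM. Both kinds of title shared this profile, and neither P2ry12 (adjusted p = 0.257) nor Cx3cr1 (adjusted p = 0.528) passed the test between them. Less RNA per cell and fewer cells of a type cannot be told apart in such bulk samples.

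Of the 23993 genes, 14125 had a mean above 0.4 FPKM over the 7 libraries and were tested with limma. A Benjamini-Hochberg adjusted p below 0.05 was reached by 608 genes (4.3%), of which 264 were higher in dated libraries (1.87%) and 344 lower (2.44%). Every one of the 608 differed by at least 1 on the log2 scale. The median over all tested genes was −0.01. The call count leaned on which samples were in: it was 151 without SS04031R, 53 without SST040241L, 55 without SST04241LL, 70 without SST3-M, 139 without SST4-M and 1962 without the near-identical pair. Called in all 7 of these fits were 40 genes, 27 higher and 13 lower, among them 16 small structured RNA genes and 7 microRNA genes. Many of these 40, all 7 microRNA genes included, were listed at 0 on 1 whole side. Such genes passed the filter through the other side alone, so their calls only describe where they were listed. If FPKM are rescaled to the same sum per library, the median over all genes moves to −0.997 and 101 genes are higher and 4792 lower. With the same sum outside small structured RNA, the median moves to 0.12, with 288 genes higher and 363 lower.

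The largest contrast was in small structured RNA. Genes of this class held 64.4%, 58.0% and 59.5% of all FPKM in SS04031R, SST040241L and SST04241LL. In the numbered libraries, in the order given above, they held 4.90%, 5.07%, 4.08% and 5.12%. The groups were far apart, at 60.6% ± 3.32 (SD, n = 3) against 4.73% ± 0.565 (SD, n = 3). The two-sided exact permutation test gave p = 0.1, the smallest p that 3 against 3 samples allow. Outside this class the summed FPKM overlapped, with 286104 to 341813 in dated and 295353 to 410183 in numbered libraries.

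**Figure D1:**
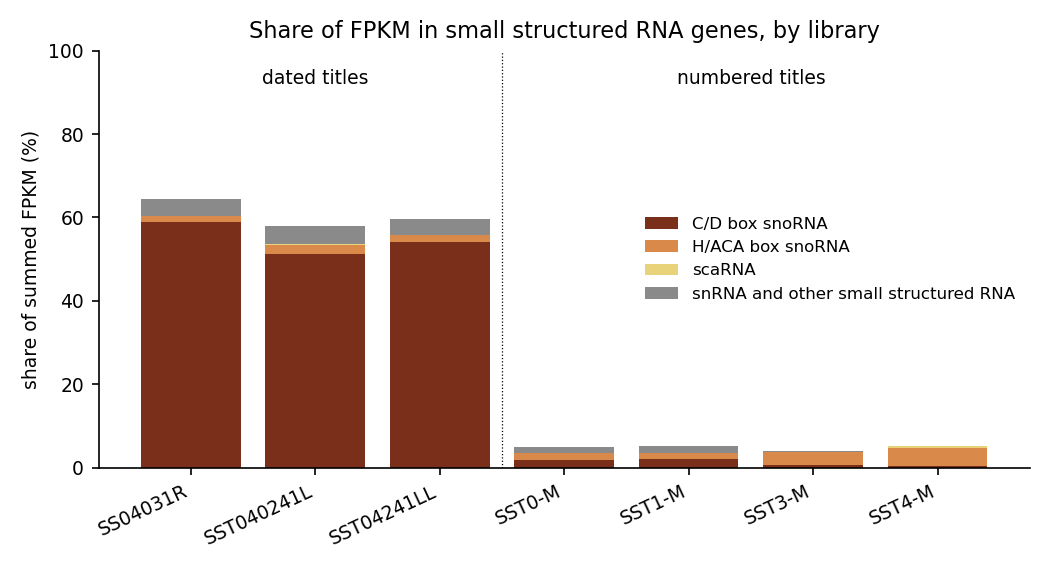
Bars show, for each of the 7 libraries, the percent of summed FPKM held by 4 classes of small structured RNA genes. The 3 dated libraries reach 58.0% to 64.4%, most of it C/D box snoRNA, and the 4 numbered libraries stay between 4.08% and 5.12%.

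Of the 134 small structured RNA genes in the table, 73 were listed at 0 in all 7 libraries and 61 passed the filter. Many of the latter passed through 1 side alone: 19 were listed at 0 in every numbered library and 6 in every dated one. For any gene listed at 0 on 1 whole side, here and below, a call and its adjusted p only describe where it was listed. Among all tested genes 1.87% were called higher and 2.44% lower. Of the 61 small structured RNA genes, 20 were higher in dated libraries, 1 was lower and 40 were not called. Without SS04031R the counts were 15 and 1, and without the near-identical pair 22 and 3. The counts of 20 and 1 were the same under each of the 4 other scalings tried.

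C/D box snoRNA genes gave the highest levels. Of 74 listed, 20 passed the filter, 14 of them listed at 0 in every numbered library, and 10 were higher, none was lower and 10 were not called. Snord33, which lies at chr7:45126864-45126945 (GRCm38.p6) inside the ribosomal protein gene Rpl13a, had 211323, 118482 and 166393 FPKM in the dated libraries. It was listed at 0 in all 4 numbered libraries (limma, adjusted p = 3.53e-07). Such a 0 may mean that no reads fell there or that the estimate failed. Alone it held 17.4% to 22.4% of all FPKM in the dated libraries. Snord55 had 28653, 46982 and 39916 FPKM and was likewise listed at 0 in every numbered library (adjusted p = 3.53e-07). Snord32a, Snord35a, Snord16a and Snord92 showed the same split, with 832 to 16359 FPKM in the dated libraries. All of these genes passed the filter through the dated libraries alone, so their calls are a description of where they were listed.

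Among C/D box genes with values above 0 on both sides, 4 were higher: Snord15b, Snord22, Snord17 and Snord15a. Snord8 had 1909, 2033 and 1255 FPKM in dated libraries and 911 in SST3-M alone of the numbered ones (adjusted p = 0.155). Snord89 had 762 FPKM in SS04031R alone of the dated libraries and 7926 and 8316 in SST0-M and SST1-M (adjusted p = 0.895). Neither passed the test. Snord15b (chr7:99479563-99479707, inside Rps3) had 125375, 73596 and 71881 FPKM in dated libraries against 49.1, 51.6, 52.3 and 128 in numbered ones. The difference was 10.27 ± 0.49 (SE, adjusted p = 5.97e-05). Snord22 (chr19:8725866-8725991, inside Snhg1) had 49383, 43893 and 45219 FPKM against 191, 200, 857 and 607, a difference of 6.62 ± 0.58 (SE, adjusted p = 0.00267). Snord17 differed by 7.01 ± 0.42 (SE, adjusted p = 0.000264). Snord15a was higher as well (10.94 ± 1.27, SE, adjusted p = 0.0105), but it is a close copy of Snord15b and reads could be split between them.

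The RNA parts of 2 ribonucleoproteins behaved alike. Rpph1 had 29078, 17204 and 17426 FPKM in the dated libraries and 524, 524, 93.9 and 65.0 in the numbered ones (7.11 ± 0.76, SE, adjusted p = 0.00698). Rmrp had 6090, 5115 and 4941 FPKM against 190, 190, 27.8 and 17.01 (6.86 ± 0.81, SE, adjusted p = 0.0107). On the numbered side the near-identical pair held the higher levels of both. Rnu12, a small nuclear RNA of the minor spliceosome, was at 892 to 942 FPKM against 28.6 to 84.5 (4.03 ± 0.43, SE, adjusted p = 0.00693). Vaultrc5, a vault RNA, was at 149 to 170 FPKM and below 1 FPKM in each numbered library (adjusted p = 3.11e-05).

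H/ACA box genes were mixed. Of 36 listed, 30 passed the filter, with 4 higher, 1 lower and 25 not called. Snora21 was even on both sides, at 1581 to 1652 FPKM in dated and 40.0 to 59.1 in numbered libraries (5.04 ± 0.29, SE, adjusted p = 0.000207). Snora16a had 1040 to 1558 FPKM in the dated libraries and was listed at 0 in the numbered ones (adjusted p = 1.55e-06). Snora81 and Snora74a were the other two that were higher. Snora23 had 186 to 270 FPKM in dated and 163 to 475 in numbered libraries, and the groups overlapped (adjusted p = 0.753). Snora33 overlapped too, at 555 to 1534 against 426 to 1512 FPKM (adjusted p = 0.853).

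Snora31 ran the other way. This H/ACA gene at chr14:75847923-75848034, inside the translationally controlled protein gene Tpt1, was listed at 0 in every dated library. In the numbered libraries it had 2611, 2739, 3969 and 5989 FPKM (adjusted p = 2.33e-06). It was the sole small structured RNA gene called lower. Snora31 passed the filter through the numbered libraries alone, so this call is a description of where it was listed. Among scaRNA genes, Scarna13 (235 to 250 FPKM against 0 to 10.6, adjusted p = 0.0107) and Scarna6 (86.2 to 146 against 0 to 4.54, adjusted p = 0.00697) were higher, and the other 3 that passed the filter were not called.

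Exact zeros were unevenly spread over gene length. Of 17 tested genes that span 73 to 99 bases in RefSeq, 14 were listed at 0 in every numbered library and 1 in every dated one, and 6 were called, all higher. Of 19 genes of 101 to 124 bases, 3 were listed at 0 in every numbered library and 5 in every dated one, and 1 was called, Snora31. Of 19 genes of 126 to 275 bases, 2 were listed at 0 in every numbered library and none in every dated one, and 10 were called, all higher. The 6 called genes of 73 to 99 bases passed the filter through the dated side alone, and Snora31 through the numbered side alone. Their direction was thus fixed by the filter. The part of gene length in these results was not tested.

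The 16 called-higher snoRNA and scaRNA genes lay within 13 tested host genes, of which none was called higher and 2 were called lower. With 1.87% of all tested genes called higher, a count of 0 among 13 is near the background. The 2 called lower stand beside 2.44% of all tested genes. Of the 42 hosts of all tested snoRNA and scaRNA genes, 5 were called lower. Rpl13a, which holds Snord32a, Snord33 and Snord35a, had 324, 227 and 230 FPKM in dated and 311, 313, 115 and 83.1 in numbered libraries, and the groups overlapped (0.83 ± 0.50, SE, adjusted p = 0.356). Rps3 was not called either (−1.20 ± 0.48, SE, adjusted p = 0.184). Snhg1, a noncoding host that holds Snord22, had 25.6, 13.6 and 12.9 FPKM against 98.02, 99.05, 67.5 and 44.98, lower by a log2 difference of −1.95 ± 0.39 (SE, adjusted p = 0.041). Tpt1, host of Snora31, differed by −0.02 ± 0.59 (SE, adjusted p = 0.991).

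Of 48 listed snoRNA host genes 6 were called, all lower, set beside 2.44% called lower among all tested genes. They were Snhg1, Snhg3, Snhg4, Snhg5, Gas5 and Rabggtb. The first 5 are noncoding and Rabggtb encodes a Rab prenylation enzyme. Snhg3 had 2.96 to 3.13 FPKM in dated libraries against 16.4 to 105 in numbered ones (−3.12 ± 0.63, SE, adjusted p = 0.041). Gas5 had 28.8 to 44.5 FPKM against 87.0 to 255 (−2.04 ± 0.43, SE, adjusted p = 0.0465). Without SS04031R 1 host was lower and none higher, without any 1 of the other 4 unpaired libraries none was called, and without the near-identical pair 8 were lower and 7 higher. Proteins that build snoRNPs gave 1 call in 19, a share near the 4.3% called among all tested genes. It was Naf1, an assembly factor for H/ACA particles, at 6.44 to 8.17 FPKM in dated and 0.440 to 1.97 in numbered libraries (2.04 ± 0.39, SE, adjusted p = 0.0368). Without SS04031R, Naf1 was not called by limma (adjusted p = 0.0945).

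Most microRNA genes were listed at 0. Of 1099 listed genes, 1029 were at 0 in all 7 libraries, 70 passed the filter, and 56 of these 70 were at 0 on 1 whole side (44 dated, 12 numbered). The test called 2 higher and 5 lower, set beside 1.87% and 2.44% of all tested genes. All 7 were listed at 0 on 1 whole side and passed the filter through the other side alone, so their calls are a description of where they were listed. The values are those of the annotated gene, and the mature RNA was not measured on its own. Sequences were found for 3 of the 7, and are shown to identify the genes listed on 1 side alone. The RefSeq mature sequences (GRCm38.p6) follow, with the seed, bases 2 to 8, in capitals.
mmu-miR-24-2-5p: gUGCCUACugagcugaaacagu
mmu-miR-24-3p: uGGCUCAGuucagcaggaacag
mmu-miR-6385: gCAAGGAUgacagagaggaag
mmu-miR-6236: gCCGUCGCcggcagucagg

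No seed is shared among these 4. Mir24-2 (chr8:84208815-84208921, plus strand) was listed at 0 in the dated libraries and had 2603, 2731, 1616 and 3954 FPKM in the numbered ones (adjusted p = 4.46e-06). Mir6385 (chr9:58221150-58221254, plus strand), which lies in the span of Pml, was at 0 in the dated libraries against 426, 447, 907 and 370 FPKM (adjusted p = 2.3e-05). Mir6236 (chr9:110281287-110281409) had 44835, 34255 and 35119 FPKM in the dated libraries and was at 0 in the numbered ones (adjusted p = 3.53e-07). Mir1940 was the other gene that was higher, and Mir8097, Mir6981 and Mir1b were the others that were lower.

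**Figure D2:**
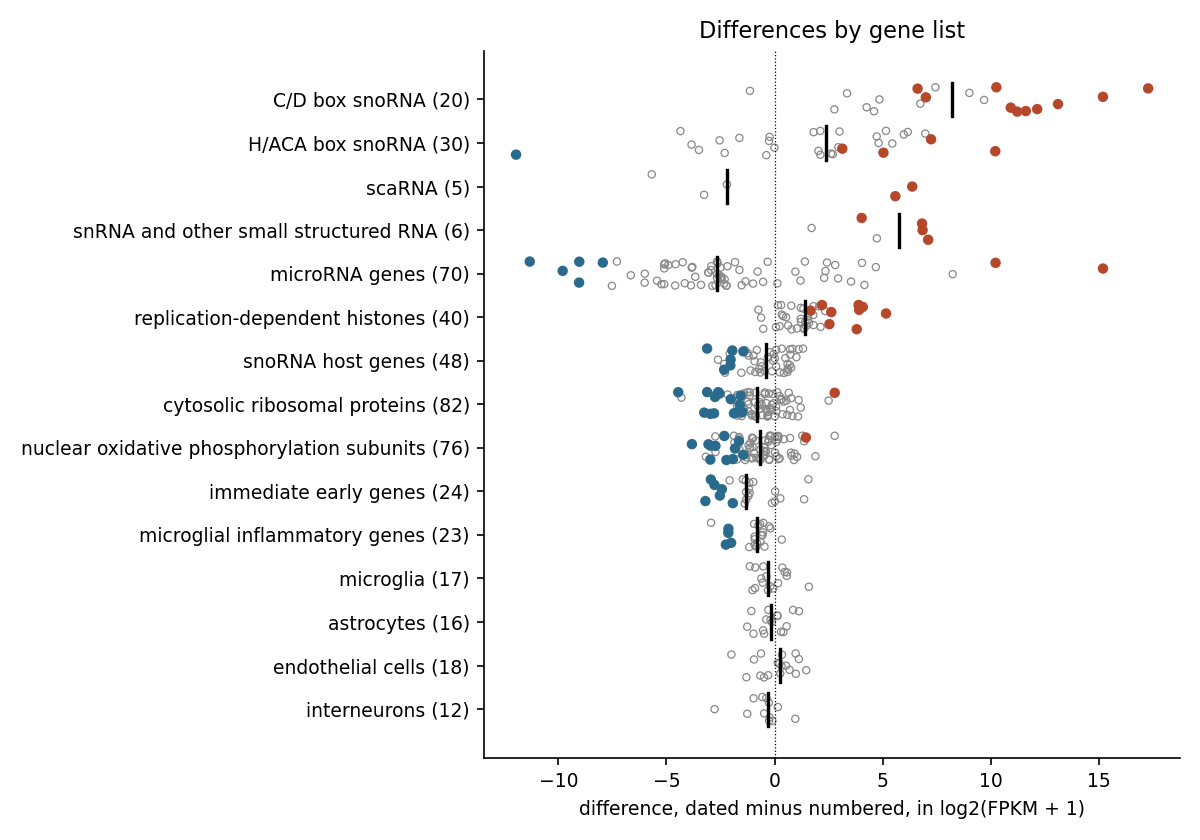
Each point is a tested gene, placed by its difference, dated minus numbered, in log2(FPKM + 1). Filled points passed an adjusted p of 0.05 (red higher, blue lower in dated), open points did not, black bars are medians and the number tested is in brackets. Small structured RNA and histone calls lie to the right apart from Snora31, and ribosomal protein, respiratory chain and immediate early calls lie mostly to the left.

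Of 67 replication-dependent histone genes, 40 passed the filter, and 9 of them were higher and none was lower. Among all tested genes 1.87% were called higher. Of the 40, 37 had a positive difference, and their median was 1.40 (1.44 without 8 genes listed at 0 on 1 whole side). With 1 of the other libraries left out, 1 to 4 were higher and none lower, and without the near-identical pair 13 were higher and 1 lower. Under the 4 other scalings 8 to 11 were higher and none was lower.

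Hist2h2ac, a core histone H2A gene, had 105, 77.6 and 77.6 FPKM in the dated libraries and 2.49, 1.74, 12.6 and 2.16 in the numbered ones (4.09 ± 0.57, SE, adjusted p = 0.0162). Hist1h1c, a linker histone H1 gene, had 98.1, 47.7 and 62.4 FPKM against 18.2, 17.6, 11.9 and 12.01 (2.20 ± 0.34, SE, adjusted p = 0.0209). Hist1h4h, which encodes histone H4, had 73.6, 42.6 and 46.6 FPKM, and of the numbered libraries SST3-M alone had a value above 0, 2.36 FPKM (adjusted p = 0.00595). Histone genes within a family are close copies, so the split of reads among them is uncertain.

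The 3′ stem-loop that ends these mRNAs is shown because it is a feature of this gene class. It was searched on the sense strand after the stop codon in GENCODE M1 protein-coding transcripts, as GGNNNNTTTNNNNNCC in which the first 6 bases pair with the last 6. It was found in 25 of 39 tested histone genes with such a transcript and in 37 of all 12407 tested genes (0.298%). Of the 9 genes called, 7 held it (77.8%, against 64.1% of the tested histone genes). In Hist2h2bb and Hist4h4 it was not found. The paired bases are in capitals.
Hist1h4h and Hist1h4c: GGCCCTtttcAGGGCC
Hist1h4i: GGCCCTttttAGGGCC
Hist2h2ac: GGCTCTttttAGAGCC
Hist1h1c, Hist1h2ab and Hist3h2a: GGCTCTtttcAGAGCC

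Variant histone genes, whose mRNAs are polyadenylated, were listed after the values were seen. Of 11, 1 was called, and it was lower: H2afz had 23.5, 16.8 and 13.1 FPKM in the dated libraries and 106, 105, 122 and 74.2 in the numbered ones (−2.44 ± 0.32, SE, adjusted p = 0.0137). H3f3b had 88.8 to 139 FPKM against 210 to 223 and did not pass (adjusted p = 0.0901). None of 14 nuclear long noncoding RNAs was called, and 2 had an unadjusted p below 0.05.

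**Figure D3:**
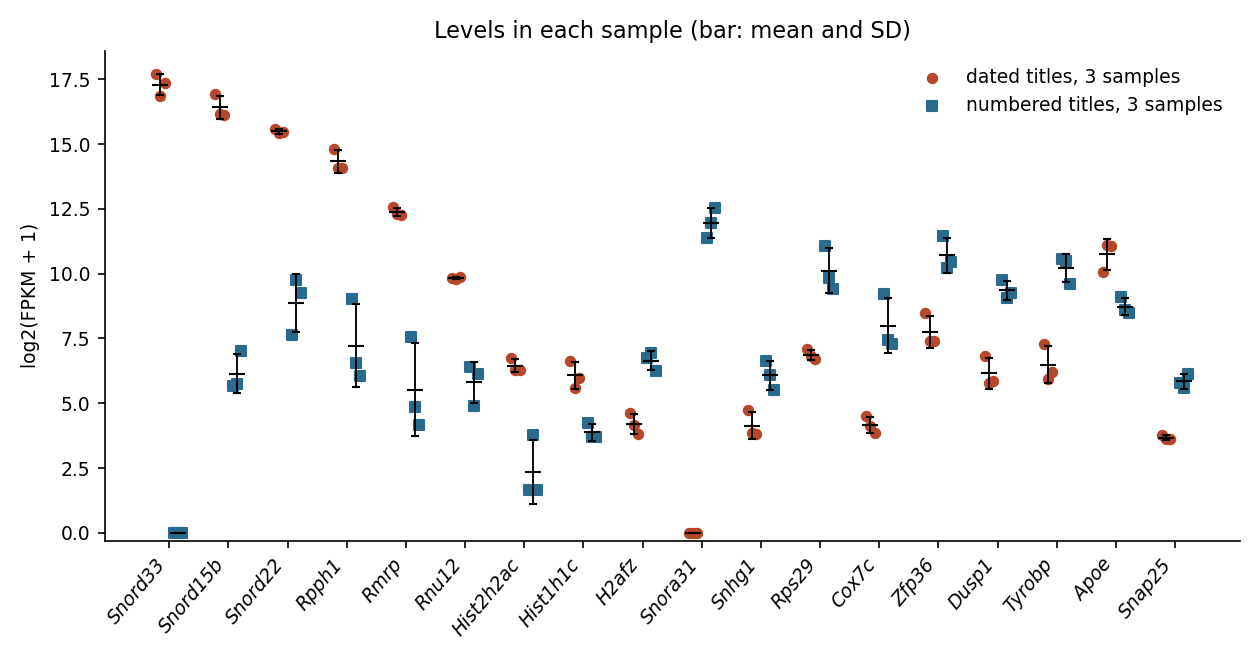
Levels of 18 genes as log2(FPKM + 1) in the 3 dated samples (red circles) and the 3 numbered samples (blue squares, the near-identical pair as their mean), with mean and SD. Snord33 to Hist1h1c and Apoe are higher in dated samples, the other genes are lower, and no gene shown overlaps between the kinds of title. The genes shown were picked from those called. Over all 14125 tested genes, 16.4% did not overlap and were higher in dated samples, and 17.2% did not overlap and were lower.

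All 82 cytosolic ribosomal protein genes were tested, and 14 were lower and 1 was higher in dated libraries, with a median of −0.81. Among all tested genes 2.44% were called lower and 1.87% higher. Rps29 had 134, 113 and 102 FPKM in the dated libraries and 2170, 2161, 921 and 687 in the numbered ones (−3.25 ± 0.46, SE, adjusted p = 0.017). Rpl31 had 42.7, 38.4 and 35.6 FPKM against 155, 155, 184 and 147 (−2.02 ± 0.26, SE, adjusted p = 0.012). Rpl22l1 showed the lowest difference of the list, at −4.45 ± 0.82 (SE, adjusted p = 0.0311). Rpl34 was the exception, at 63.2 to 120 FPKM against 4.45 to 20.2 (2.79 ± 0.52, SE, adjusted p = 0.0328). Many pseudogenes copy these genes, so the assignment of reads to them is uncertain.

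With 1 of the other libraries left out, 0 to 5 of the list were lower and none higher, and without the near-identical pair 21 were lower and 4 higher. With an equal sum over all genes 65 were lower and 1 higher. The summed level of the list was 9201 to 12867 FPKM in dated libraries. Of the numbered samples, the near-identical pair was at 30608, SST3-M at 17128 while SST4-M was at 12391, so SST4-M overlapped with the dated libraries.

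Nuclear genes for the respiratory chain and ATP synthase gave 11 lower and 1 higher of 76, with a median of −0.66. Among all tested genes 2.44% were called lower and 1.87% higher. Cox7c, a small subunit of cytochrome c oxidase, had 21.7, 16.5 and 13.5 FPKM in dated and 593, 587, 175 and 155 in numbered libraries (−3.82 ± 0.52, SE, adjusted p = 0.0148). Atp5g1, a ring subunit of ATP synthase, had 4.44, 3.89 and 2.93 FPKM against 36.3, 36.03, 41.8 and 30.6 (−2.97 ± 0.28, SE, adjusted p = 0.00356) and was called with each sample left out in turn. Ndufb10, of complex I, was higher (1.45 ± 0.32, SE, adjusted p = 0.0499). With 1 of the other libraries left out, 1 to 5 genes were lower and none higher, and without the near-identical pair 19 were lower and 5 higher. Mitochondrial ribosomal proteins gave 3 lower, Mrps21, Mrps33 and Mrps36, and 1 higher, Mrps30, of 77, a share near the 4.3% called among all tested genes.

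These lists hold short transcripts, and differences moved with transcript length over all genes. The median GENCODE M1 transcript of the ribosomal protein list was 718 bases, that of the respiratory list 690.5 bases and that of all tested genes with a length 2323 bases. Among 142 genes of up to 500 bases the median difference was −0.38, with 9.15% called lower and 3.52% higher. Among 675 genes over 6000 bases it was 0.08, with 0.593% called lower and 1.33% higher. Of 1752 genes of up to 1000 bases, 103 were lower and 34 higher, and 84 and 32 remained among the 1636 outside both lists. The part of transcript length in the ribosomal and respiratory results was not tested. The median histone transcript was 520 bases, and 9 of 40 tested histone genes were higher and none lower.

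**Figure D4:**
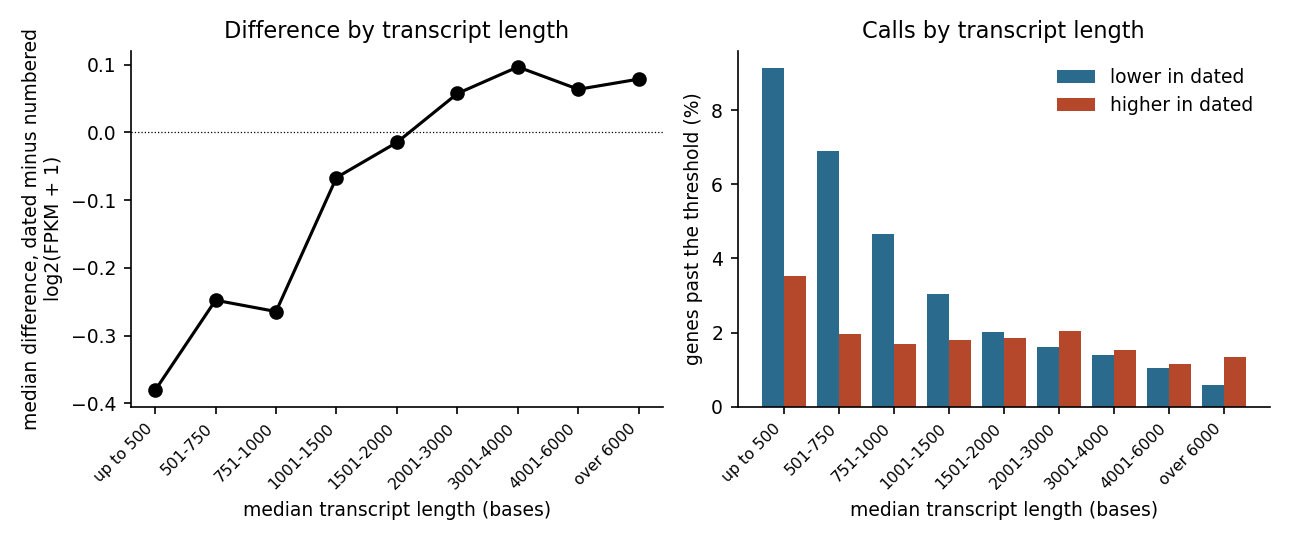
Genes are binned by the median length of their GENCODE M1 protein-coding transcripts in bases. The left panel gives the median difference, dated minus numbered, in log2(FPKM + 1), which goes from −0.38 in the shortest bin to 0.08 in the longest. The right panel gives the percent of genes past an adjusted p of 0.05, lower in blue and higher in red.

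Immediate early genes are switched on within minutes of a stimulus, tissue dissociation included. Of 24 tested, 6 were called, all lower in dated libraries, set beside 2.44% called lower among all tested genes. The median of the 24 was −1.32. Dusp1, a phosphatase that turns off MAP kinases, had 113, 53.4 and 57.5 FPKM in dated and 859, 861, 527 and 616 in numbered libraries (−3.20 ± 0.39, SE, adjusted p = 0.0111). Zfp36, which destabilizes cytokine mRNAs, had 356, 168 and 168 FPKM against 2828, 2835, 1182 and 1387 (−2.94 ± 0.48, SE, adjusted p = 0.0236). Egr1, Egr2, Egr3 and Fosb were the others. Fos had 208, 95.3 and 109 FPKM against 339, 337, 307 and 339, and did not pass (adjusted p = 0.0831). Without SS04031R 5 were lower, without any 1 of the other 4 unpaired libraries 1 or 2, and without the near-identical pair 10 were lower and 2 higher.

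Heat shock genes gave 3 lower of 14, set beside 2.44% called lower among all tested genes. The 3 were Dnajb1, Dnaja1 and Hspd1, and none was called with any 1 unpaired library left out. Microglial inflammatory genes gave 4 lower of 23 and none higher, set beside the same 2.44%. These were the chemokines Ccl3 and Ccl4, the cytokine Il1a and Nfkbiz, a nuclear IκB protein. Ccl3 had 42.1, 28.4 and 25.7 FPKM in dated libraries and 313, 312, 100 and 114 in numbered ones (−2.25 ± 0.47, SE, adjusted p = 0.0451). Without SS04031R 2 were lower, and without any 1 of the other 4 unpaired libraries none or 1. None of 20 interferon-stimulated genes was called by limma, and 2 had an unadjusted p below 0.05.

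Of 15 tested genes of disease-associated microglia, 1 was lower and 1 higher, set beside 4.3% called among all tested genes. Tyrobp, an adaptor for microglial receptors such as Trem2, had 156, 60.6 and 73.1 FPKM in dated libraries against 1512, 1522, 1452 and 776 (−3.74 ± 0.46, SE, adjusted p = 0.0115). Apoe, a lipid carrier made by astrocytes and microglia, had 1072, 2180 and 2169 FPKM against 542, 543, 391 and 357 (2.02 ± 0.41, SE, adjusted p = 0.041). Lysosomal genes gave Lamp2 and Lipa lower and Scarb2 higher among 24, set beside the same 4.3%. Antigen presentation genes gave H2-K1 and H2-D1 lower and the peptide transporter gene Tap2 higher among 15. Without SS04031R, none of these lysosomal and antigen presentation genes was called by limma (adjusted p = 0.0504 to 0.084).

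Some called genes have near copies that went the other way, and reads may have been assigned to a different copy. H2-L, a class I gene, was listed at 0 in all numbered libraries and had 24.02, 23.3 and 32.1 FPKM in the dated ones (adjusted p = 0.000558), while H2-D1 had 44.0 to 70.5 FPKM in dated and 130 to 154 in numbered libraries. Tgoln2 was listed at 0 in the numbered libraries against 33.9 to 49.96 FPKM (adjusted p = 0.000218), and Tgoln1 was lower (−1.68 ± 0.36, SE, adjusted p = 0.0481). Amd1, for a polyamine synthesis enzyme, had 0.0713 to 0.124 FPKM in dated libraries against 10.1 to 15.3 (adjusted p = 0.00398), and its copy Amd2 had 21.6 to 25.1 against 0.0105 to 7.27 (adjusted p = 0.0835). In all, 24 genes were at 0 in every numbered library and at 1 FPKM or more in every dated one, and 14 the reverse.

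Outside all lists, Snrpg, a core protein of spliceosomal particles, had 9.55, 3.77 and 5.66 FPKM against 893, 889, 71.1 and 72.8 (−4.60 ± 0.94, SE, adjusted p = 0.0423). Spc24, a kinetochore protein gene, was at 0 to 0.861 FPKM against 13.1 to 38.8 (adjusted p = 0.0107). AF357399, a snoRNA gene by its RefSeq class, had 2286, 461 and 499 FPKM in the dated libraries and was at 0 in the numbered ones (adjusted p = 0.000277). Gm20594 was at 56.2 to 91.6 FPKM against 0 to 1.81 (adjusted p = 0.00213). In mRNA processing, Srsf2 and Srsf3, splicing factors, were lower and Luc7l2 was higher among 27 genes, set beside 4.3% called among all tested genes. Without SS04031R, Srsf3 was still called by limma (adjusted p = 0.0451), and Srsf2 and Luc7l2 were not. Of 39 proteasome genes, Psmd3 was the only one called, and it was higher. That share is below the 4.3% called among all tested genes, and without SS04031R Psmd3 was not called by limma (adjusted p = 0.0926).

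Of 152 cell type marker entries tested in 14 lists, 2 were called, a share below the 4.3% called among all tested genes. Entries are counted per list, and a gene such as Pdgfra stands in several lists. The 2 called were the synaptic genes Snap25 and Syn1, both lower in dated libraries. Of the 152 entries, 13 had an unadjusted p below 0.05. Snap25 had 12.7, 11.3 and 11.4 FPKM in dated libraries and 54.4, 54.5, 47.5 and 69.7 in numbered ones (−2.17 ± 0.26, SE, adjusted p = 0.0107). Syn1 had 3.02 to 4.01 FPKM against 9.47 to 15.5 (−1.46 ± 0.32, SE, adjusted p = 0.0499). Without SS04031R, Syn1 was not called by limma (adjusted p = 0.0969). The other 14 pan-neuronal markers were not called, and the median of the 16 was −0.01. Pan-neuronal markers summed to 72.7 to 120 FPKM in dated and 147 to 193 in numbered samples. Interneuron markers summed to 43.8 to 113 FPKM against 129 to 366, with Pvalb at 0 in 4 of the 7 libraries, and excitatory neuron markers to 65.3 to 102 against 162 to 219. These 3 neuronal sums did not overlap between the kinds of title. Among single tested genes, 17.2% did not overlap and were lower in dated samples.

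Summed microglial markers were 10288, 4667 and 5083 FPKM in SS04031R, SST040241L and SST04241LL. The near-identical pair was at 7036, SST3-M at 10649 while SST4-M was at 6651, and the groups overlapped. Astrocyte markers summed to 1669, 4118 and 4245 FPKM against 5403, 2109 and 2590. Mural cell markers summed to 14.0, 350 and 263 FPKM against 295, 72.4 and 48.9. SS04031R was thus lowest in astrocyte and mural markers, and the near-identical pair was the highest numbered sample in both. Cldn5, an endothelial tight junction gene, had 1.20, 29.8 and 16.4 FPKM in the dated libraries. Red blood cell markers summed to 12.4, 296 and 253 FPKM against 278, 45.2 and 55.4, and the groups overlapped. Among the hemoglobin genes, which are close copies, Hbb-bs was at 149 to 150.4 FPKM in SST0-M and SST1-M and at most 0.221 in the other 5, while Hba-a1 was highest in SST040241L and SST04241LL, at 230.2 and 219 FPKM. The part of these markers in the results above was not tested.

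**Figure D5:**
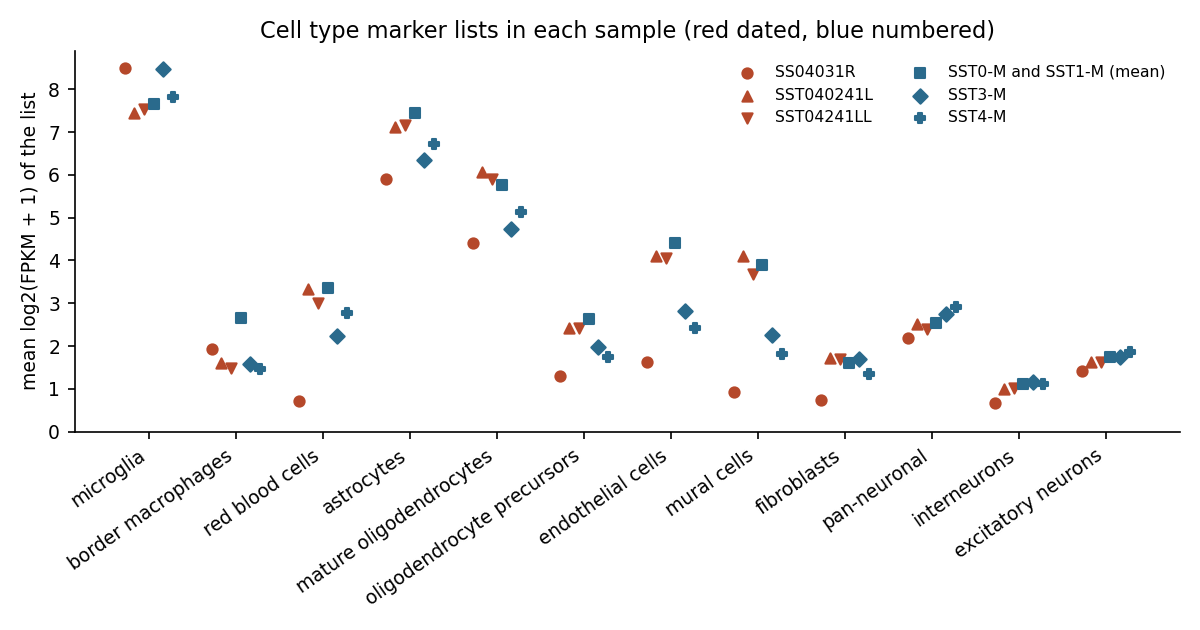
Mean log2(FPKM + 1) of 12 cell type marker lists in each of the 6 samples, dated in red and numbered in blue. SS04031R lies lowest in every list shown, the neuronal ones included, apart from border macrophages and microglia, and it is highest for microglia. The near-identical pair lies high for several lists. The neuronal lists are the ones in which every dated sample is below every numbered one.

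The called genes were then looked up in libraries that took no part in the comparison. All 3 libraries of stressed Sst males have dated titles, and none of the 14 libraries of unstressed Sst females and unstressed Pvalb males has one. Among these 14 is 1 more near-identical pair, PV0-M with PV2-M (SD of the log2 ratio 0.0170). Sex, cell label and stress change along with the title there and cannot be told apart from it. Of the 264 genes higher in dated controls, 242 were higher in all 3 stressed libraries than in all 14 others, and of the 344 lower genes 287 were lower in all 3. Among all tested genes with a positive difference in the controls 27.02% were higher in all 3, and among those with a negative difference 25.7% were lower in all 3. Over all tested genes whatever their difference, 14% were higher and 13.4% lower in all 3. Of the 20 small structured RNA genes that were higher, 19 did so, as did 8 of 9 histones, 14 of 14 lower ribosomal protein genes and 10 of 11 lower respiratory genes. Of the 6 immediate early genes 3 did so, and of the 4 inflammatory genes none did.

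Rpph1 shows the pattern. It had 15561 to 19441 FPKM in the 3 stressed libraries, 34.2 to 126 in the 7 of Sst females and 16.9 to 66.6 in the 7 of Pvalb males. Snora31 was listed at 0 in all 3 stressed libraries and had 711 to 3448 FPKM in Sst females and 3040 to 5034 in Pvalb males. Across genes, SST040241L and SST04241LL had a Pearson correlation of 0.945 with each other and 0.945 to 0.956 with the stressed libraries, against 0.659 to 0.803 between dated and numbered unstressed males. SS04031R was less like them, at 0.887 to 0.891 with the other dated controls and 0.877 to 0.884 with the stressed libraries. Among numbered libraries, SST3-M and SST4-M had a correlation of 0.926, but the near-identical pair had only 0.765 to 0.776 with them, which lies within the range between dated and numbered libraries. These correlations are across genes, which are not independent replicates.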

How the data were processed

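The authors deposited 1 table of FPKM for 23993 gene symbols in 24 libraries. Their methods name TopHat2 with mm9, then HISAT2 with mm10, StringTie and ComBat, and the submitters' processing notes name TopHat2, Cufflinks, Cuffdiff and mm10. Which of these made the table is not given in the sources used here. Counts were not used here, so no count test was run and no counting interval is given. Small RNA genes shorter than a fragment are hard to quantify in FPKM.

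Samples were grouped by the kind of title. SST0-M and SST1-M were averaged, since their SD of the log2 ratio over genes above 5 FPKM was under 10% of that of the next pair. log2(FPKM + 1) of genes with a mean above 0.4 FPKM was fitted with limma 3.58.1 (R 4.3.3), using its trend and robust options. Tests were two-sided, and p-values were adjusted by Benjamini and Hochberg's method over every gene tested, with a threshold of 0.05. The fit was tested on simulated data with known changes.

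Named genes are the 5 largest called, non-overlapping differences each way among small structured RNA, list members and all other genes, a set of marker and RNA quality genes whatever their test, the 2 largest calls each way per list, and the 3 highest genes each way that were listed at 0 on 1 side. Other named genes, variant histones and paralogs included, were chosen after their values were seen. The members and lists were chosen with earlier results of these data known. Positions are RefSeq GRCm38.p6, in which 22499 of 23993 symbols were found. Transcript lengths are GENCODE M1 and were found for 12407 of 14125 tested genes. Tables and plots were made in Python 3.11.15 (pandas 2.3.3, matplotlib 3.10.9).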

Additional observations from a re-analysis of the deposited data

How the results depend on the processing

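With all samples 608 genes were called. The count was 498 and 585 with pseudocounts of 0.1 and 5, 747 with a mean above 5 FPKM, 529 with a common median, 651 with an equal sum outside small structured RNA and 473 with limma's plain fit. It was 381 with no filter on low values, 1125 with quantile normalization, 4893 with an equal sum over all genes, 1769 with SST0-M and SST1-M as 2 samples and 3617 with the spread taken from all groups. Leaving out each sample in turn gave 53 to 1962 calls. No called gene that the text names by its rule changed sign under any alternative. In each of these genes the kinds of title did not overlap, so leaving out a sample could not change a sign. Of those 64 genes, 24 to 64 kept their call when a sample was left out. The share of FPKM in small structured RNA differed by 55.9 percentage points, by 52.4 with snoRNA and scaRNA symbols alone, and by 54.0 to 57.2 with a sample left out. No paired analysis was possible because the dated titles hold no replicate number that the numbered titles share. Read depth is known only as a ratio, so counting error could not be set apart from the spread between samples.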
